A study of Mus musculus with 14 samples.

Results

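The Jun and Fos family gene loci were described here from a bulk ATAC-seq table of mouse splenic regulatory T cells (Tregs). ATAC-seq (assay for transposase-accessible chromatin with sequencing) counts fragments cut by a transposase that reaches open DNA, so that a count measures chromatin accessibility and not expression. The members were Jun, Junb, Jund, Fos, Fosb, Fosl1, Fosl2, Atf3 and Batf3. A region belonged to a member gene when its midpoint lay nearest to a protein-coding transcription start of that gene, or inside its gene body. This gave 78 of 67254 regions, of which 27 belonged to Jun, 12 to Fos, 9 to Fosl2, 9 to Atf3, 7 to Fosb, 6 to Batf3, 4 to Junb, 3 to Jund and 1 to Fosl1. Of the 78, 11 lay within 1 kb of a start, 44 lay over 1 kb and up to 50 kb away, and 23 lay further, of which 18 belonged to Jun. The nearest start is a naming rule and does not show which gene a distant region acts on.

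The 14 libraries fell into 4 groups, with 3 control and 4 Atg14-deficient libraries for each of 2 Treg states. Central Tregs (cTregs) were sorted as CD4+Foxp3-YFP+CD44– cells and effector Tregs (eTregs) as CD4+Foxp3-YFP+CD44+ cells, with a further surface marker in the gate. Controls were Foxp3Cre Atg14+/fl and Atg14-deficient cells were Foxp3Cre Atg14fl/fl, so that controls carried the same Cre and 1 floxed allele and Cre was driven by Foxp3. Some mice of this genotype in the study also carried an Atg14-null allele, and whether any of them gave these libraries is not given in the sources used here. CD45.2+ marrow of either genotype was mixed 1:1 with CD45.1+ wild-type marrow and given to sublethally irradiated Rag1–/– hosts, which lack their own T and B cells, and the chimeras were left for 6–8 weeks. The replicates of a genotype were counted as separate chimeric mice in the study, but the labels gave neither the age of the mice nor the mouse behind each library. Libraries held 2242983 to 5548189 counts in regions, and the share of counts within 1 kb of a start was 52.6% to 57.9% in control cTregs, 51.4% to 55.1% in Atg14-deficient cTregs, 54.2% to 57.2% in control eTregs and 52.9% to 56.8% in Atg14-deficient eTregs. Neither Foxp3 nor Cd4 had a region within 1 kb of its start, so these defining genes could not check the sort. Summed over 6 central-state promoters, cTreg libraries held 199 to 246 CPM (counts scaled to a fixed library total of 1000000) and eTreg libraries 139 to 166 CPM. The 6 measured effector-state promoters gave overlapping sums, from 202 to 249 CPM in cTregs and 197 to 246 CPM in eTregs. The 2 measured of 6 myeloid promoters, Cebpa and Spi1, summed to 15.1 to 21.8 CPM in cTregs and 27.3 to 49.2 CPM in eTregs, while Lyz2, Csf1r, Itgam and Fcgr3 had no promoter region; the 3 measured of 5 CD8 T and NK promoters summed to 27.6 to 40.1 CPM in cTregs and 15.6 to 27.6 CPM in eTregs. The 4 measured of 6 Treg identity promoters, among them Il2ra and Ctla4, summed to 125.3 to 131.7 CPM in control cTregs, 137.5 to 167 CPM in Atg14-deficient cTregs, 93.7 to 97.4 CPM in control eTregs and 117.5 to 125.8 CPM in Atg14-deficient eTregs. The single measured erythroid promoter, Gata1, held 1.78 to 11.8 CPM in cTregs and 0 to 3.44 CPM in eTregs, and the 2 measured of 6 B cell promoters overlapped, at 8.41 to 26.2 CPM. All but the effector and B cell sums were apart between the cell states within each genotype, and the Treg identity sum was also higher, without overlap, in Atg14-deficient than in control cells of either state. The part of these sums in the state and genotype differences given here was not tested. The region at the Atg14 start held 24.2 ± 6.12 CPM in control eTregs and 24.8 ± 3.91 CPM in Atg14-deficient eTregs (SD, n = 3 and 4); the deleted part of the gene was not given in the sources used here, so this checks nothing about the deletion.

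Jun and Fos proteins are basic leucine zipper factors that pair to form AP-1. Jun proteins pair with one another or with Fos proteins, whereas Fos proteins need a partner, and the pairs bind short palindromic sites of the form TGANTCA. Antigen receptor signals raise AP-1 through mitogen-activated protein kinases, and AP-1 joins NFAT and BATF at many T cell genes. JunB and BATF are known to be needed for the effector Treg programme, and Jun is known to bind its own promoter.

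Windows inside 6 of the regions are printed first, because the results turn on them. Capitals mark a motif match in each. The motifs searched on both strands were the AP-1 site TGANTCA, the cyclic AMP response element TGACGTCA, the AP-1-like site TGACATCA known from the Jun promoter, and the CArG box, which serum response factor binds. TGANTCA stood in 7.81% of 32851 RefSeq promoters of 300 bases, in 14.7% of the central 300 bases of 67207 regions and in 14.1% of those of the 78 members. The shares of the same 3 sets were 1.79%, 1.14% and 0% for TGACGTCA, 3.62%, 2.45% and 5.13% for TGACATCA, and 1.63%, 1.41% and 3.85% for the CArG box. A match describes letters and not a bound site. All coordinates are GRCm38, and genes are from GENCODE. The first 3 windows lie at member starts on the gene's strand, and the Jund window holds only the site, since RefSeq starts Jund further upstream.
Jun start, chr4:95052223-95052413, minus strand: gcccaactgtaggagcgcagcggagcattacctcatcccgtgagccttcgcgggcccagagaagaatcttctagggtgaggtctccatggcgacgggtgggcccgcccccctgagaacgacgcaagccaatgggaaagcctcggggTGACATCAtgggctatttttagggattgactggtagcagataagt
Jund start, chr8:70698724-70698753, plus strand: ccccacccccaTGACGTCAacccacaatgc
Fos start, chr12:85473420-85473719, plus strand: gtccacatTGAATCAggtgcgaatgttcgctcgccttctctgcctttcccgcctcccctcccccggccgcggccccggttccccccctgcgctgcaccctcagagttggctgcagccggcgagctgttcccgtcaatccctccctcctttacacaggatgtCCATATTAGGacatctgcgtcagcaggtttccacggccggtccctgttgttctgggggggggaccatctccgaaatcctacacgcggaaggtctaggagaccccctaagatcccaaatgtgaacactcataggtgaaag
The other windows are intergenic regions upstream of Jun, on the plus strand, at 136 kb, 226 kb and 251 kb from the Jun start.
Jun 136 kb upstream, chr4:95188058-95188357: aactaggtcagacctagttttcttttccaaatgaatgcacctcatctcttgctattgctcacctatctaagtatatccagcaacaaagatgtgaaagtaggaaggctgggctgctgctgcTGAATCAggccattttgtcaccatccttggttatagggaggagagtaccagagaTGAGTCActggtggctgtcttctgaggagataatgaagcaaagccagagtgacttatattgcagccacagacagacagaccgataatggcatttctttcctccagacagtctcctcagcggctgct
Jun 226 kb upstream, chr4:95278109-95278408: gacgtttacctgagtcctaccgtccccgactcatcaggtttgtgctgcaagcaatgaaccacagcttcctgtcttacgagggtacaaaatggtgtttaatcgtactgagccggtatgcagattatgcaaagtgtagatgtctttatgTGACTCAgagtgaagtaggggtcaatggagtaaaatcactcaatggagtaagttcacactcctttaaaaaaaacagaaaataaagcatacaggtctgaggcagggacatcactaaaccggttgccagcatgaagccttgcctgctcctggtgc
Jun 251 kb upstream, chr4:95303335-95303634: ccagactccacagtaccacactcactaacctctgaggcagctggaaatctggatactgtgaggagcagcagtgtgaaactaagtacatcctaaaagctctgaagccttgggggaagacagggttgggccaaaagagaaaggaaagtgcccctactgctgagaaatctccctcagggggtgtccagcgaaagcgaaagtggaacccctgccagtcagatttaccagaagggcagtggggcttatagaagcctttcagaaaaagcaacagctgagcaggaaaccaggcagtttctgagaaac
The window 136 kb upstream holds TGAATCA and TGAGTCA, the window 226 kb upstream holds TGACTCA, and the window 251 kb upstream holds none of the motifs.

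Per kilobase of region, the Jun start was the most accessible of all 78 members, at 311 CPM per kb averaged over the libraries. At the region of highest count within 1 kb of each other start, the level per kb was 105 for Junb, 81.4 for Jund, 71.2 for Fos, 58.7 for Fosb, 49.7 for Fosl2, 49.1 for Atf3, 16.3 for Fosl1 and 13.8 for Batf3, whose other such region held 14.7. Of the 78 regions, 74 had enough counts to be tested; the other 4 belonged to Atf3 (2), Fos and Jun and averaged 4.14 to 5.93 counts per library.

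The first question was how accessibility of these loci differed between the eTreg and the cTreg state. In control cells, 2 member regions were higher and 3 were lower in eTregs, and 4 of these 5 belonged to Jun. In Atg14-deficient cells, 1 Batf3 region was higher and 4 Jun regions were lower in eTregs. A region was called when edgeR's quasi-likelihood test gave an adjusted p (Benjamini-Hochberg, over 61366 regions) below 0.05 and the log2 fold change passed 0.5 in size. By this rule 2.01% of all tested regions were higher and 3.29% lower in control eTregs, and 4.41% were higher and 5.4% lower in Atg14-deficient eTregs, against 2.7% and 4.05% of the 74 members in control cells and 1.35% and 5.41% in Atg14-deficient cells. The member shares were near those of all regions except for higher calls in Atg14-deficient cells (1.35% against 4.41%). Few members were called, and the differences between these shares were not tested. The median log2 fold change of the members was −0.16 in control cells and −0.11 in Atg14-deficient cells, beside −0.01 and 0.02 over all tested regions. The direction was the same in both genotypes for 53 of 74 members (71.6%), and for 45011 of 61366 tested regions (73.4%). Without control eTreg replicate 1 the control count was 0, and without any 1 of Atg14-deficient cTreg replicates 1, 2 and 3 and eTreg replicates 1 and 4 the Atg14-deficient count was 2. The Atg14-deficient count was 10 in place of 5, with 3 higher and 7 lower, when libraries with the same replicate number were paired within each genotype. With that pairing 4684 of all 61366 tested regions were called higher and 4811 lower, in place of 2707 and 3314.

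**Figure D1:**
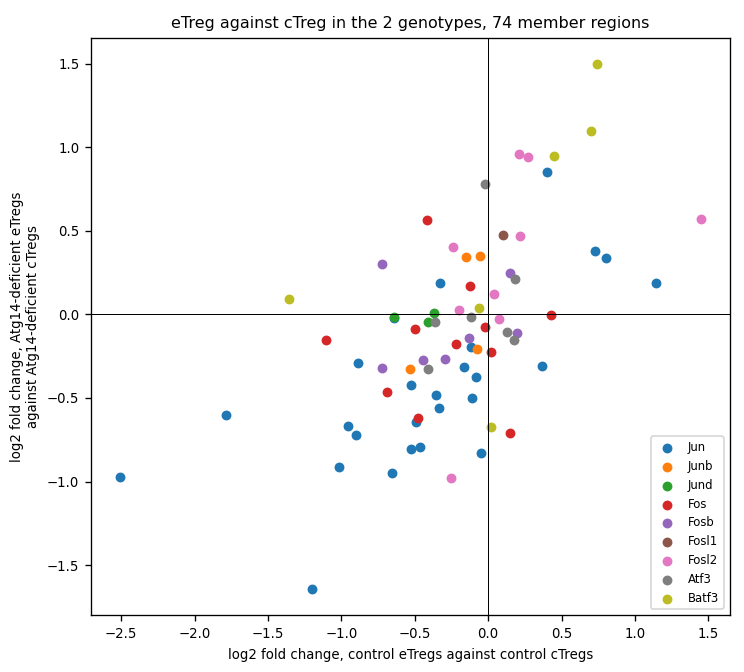
Each point is 1 of the 74 tested member regions, with its log2 fold change between eTregs and cTregs in control cells on the x axis and in Atg14-deficient cells on the y axis, coloured by gene. The Jun regions lie mostly below 0 on both axes, with 21 of 26 below 0 in each genotype. Over all 61366 tested regions, 31171 lay at or below 0 in control cells and 29667 in Atg14-deficient cells.

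Jun, the founding AP-1 subunit, held 4 of the 5 calls in each genotype. Of its 26 tested regions, 21 had a log2 fold change below 0 in control eTregs and 21 in Atg14-deficient eTregs. The medians were −0.41 and −0.49. Over all 61366 tested regions, 31171 and 29667 were at or below 0. The Jun regions were read in the same libraries and are not independent of one another. In the other fits of these 26 regions (scaling, offsets, pairing or groups changed), 20 or 21 were below 0 in either genotype, while among the 15 Jun regions with at least 10 counts in every library the medians were −0.16 and −0.43. Summed over its 27 regions, Jun held 938 ± 111 CPM in control cTregs, 955 ± 91.6 CPM in Atg14-deficient cTregs, 804 ± 109 CPM in control eTregs and 721 ± 104 CPM in Atg14-deficient eTregs (SD, n = 3, 4, 3 and 4).

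The Jun region 1.13 kb upstream of the start (chr4:95053176-95053535, within the noncoding gene Junos) held 94.8, 95.3 and 99.9 CPM in control cTregs and 64.4, 61.4 and 75.0 CPM in control eTregs. The Atg14-deficient cTregs held 106, 101, 120.4 and 96.4 CPM and the Atg14-deficient eTregs 59.6, 54.0, 71.2 and 57.5 CPM. Every eTreg library lay below every cTreg library of either genotype. The log2 fold change was −0.52 ± 0.13 (SE; adjusted p = 0.0195) in control cells and −0.81 ± 0.12 (adjusted p = 0.000136) in Atg14-deficient cells. The control call was lost on its fold with DESeq2 size factors (−0.50) and DESeq2's Wald test (−0.49), and on its adjusted p without control cTreg replicate 1 or 3 or control eTreg replicate 1 or 2 (0.059 to 0.0909). The Atg14-deficient call held in every fit.

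The region at the Jun start itself (chr4:95051995-95052923, midpoint 0.237 kb upstream), which holds the AP-1-like site printed above, held 339.5, 286 and 374 CPM in control cTregs and 273, 200.5 and 307 CPM in control eTregs. In Atg14-deficient cells it held 330.5, 365, 350.2 and 271 CPM in cTregs and 206, 306, 241 and 191 CPM in eTregs. The groups overlapped in both genotypes. The log2 fold change was −0.35 ± 0.16 (adjusted p = 0.229) in control cells and −0.48 ± 0.14 (adjusted p = 0.0338) in Atg14-deficient cells, where it missed only the fold cutoff; with TMM normalization it was −0.51 and with offsets for GC content −0.62, both called.

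Far upstream of Jun, regions moved in both directions. The region 251 kb upstream (chr4:95303253-95303717), printed above without a motif, lies 254 kb from the start of Fggy and so is nearly as close to that gene. It held 24.7, 31.6 and 22.3 CPM in control cTregs, 32.8, 25.7, 27.9 and 28.3 CPM in Atg14-deficient cTregs, 11.7, 14.7 and 12.6 CPM in control eTregs, and 12.3, 17.6, 13.5 and 17.5 CPM in Atg14-deficient eTregs. No eTreg library reached the level of any cTreg library. The log2 fold change was −1.02 ± 0.24 (adjusted p = 0.0106) in control cells and −0.92 ± 0.21 (adjusted p = 0.00526) in Atg14-deficient cells; the control call was lost only without control eTreg replicate 1 (adjusted p = 0.0566). Of 14096 promoter regions outside the members, those whose log2 CPM followed this region closely over the 14 libraries included Frmd4b (Pearson r = 0.91) and Sema4a (0.90), a description over libraries that share 2 cell states.

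Its neighbour 250 kb upstream (chr4:95302380-95302635) was called in Atg14-deficient cells, with 6.72, 8.18, 6.84 and 2.89 CPM in cTregs and 1.20, 2.09, 2.91 and 1.54 CPM in eTregs, where the lowest cTreg and the highest eTreg library met. The log2 fold change was −1.64 ± 0.51 (adjusted p = 0.0368) there and −1.20 ± 0.59 (adjusted p = 0.253) in control cells. The 4th Jun call in Atg14-deficient cells, named after its values were seen, was the region 65.4 kb upstream (chr4:95117457-95117773), with 15.1, 21.8, 24.2 and 13.5 CPM in cTregs and 10.2, 11.7, 12.7 and 8.73 CPM in eTregs (log2 fold change −0.79 ± 0.26, adjusted p = 0.0482). Both calls were fragile. The first was lost without any 1 of Atg14-deficient cTreg replicates 1, 2 and 3 and eTreg replicates 1, 2 and 4, and the second was lost without any 1 of 7 of the 8 libraries and under 5 other settings (adjusted p 0.05 to 0.192).

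The Jun regions 226 kb and 136 kb upstream, which hold AP-1 motifs, were higher in control eTregs. At 226 kb (chr4:95277885-95278597, 279 kb from Fggy), control cTregs held 13.4, 11.2 and 12.9 CPM and control eTregs 31.6, 24.1 and 27.6 CPM, while Atg14-deficient cTregs held 12.2, 18.3, 16.3 and 16.1 CPM and Atg14-deficient eTregs 16.8, 12.97, 28.1 and 13.4 CPM. The control groups were apart and the Atg14-deficient groups overlapped, with 1 eTreg library, replicate 3, at the control eTreg level. The log2 fold change was 1.15 ± 0.28 (adjusted p = 0.0134) in control cells, and the call was lost without control cTreg replicate 1 or control eTreg replicate 1 (adjusted p = 0.0534 and 0.0694). In Atg14-deficient cells it was 0.19 ± 0.24 (adjusted p = 0.669).

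At 136 kb from Jun (chr4:95188000-95188559, 209 kb from Mysm1), control cTregs held 30.8, 40.7 and 23.2 CPM and control eTregs 54.0, 54.9 and 58.8 CPM. Atg14-deficient cTregs held 19.3, 33.5, 36.3 and 28.3 CPM and Atg14-deficient eTregs 28.2, 41.0, 39.2 and 41.1 CPM. The 3 control eTreg libraries stood above the other 11 libraries. The log2 fold change was 0.80 ± 0.21 (adjusted p = 0.0215) in control cells and 0.34 ± 0.19 (adjusted p = 0.261) in Atg14-deficient cells. The control call was lost without any 1 of control cTreg replicates 1 and 3 and the 3 control eTreg replicates (adjusted p 0.0542 to 0.111), with log2 fold changes of 0.65 to 0.83.

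**Figure D2:**
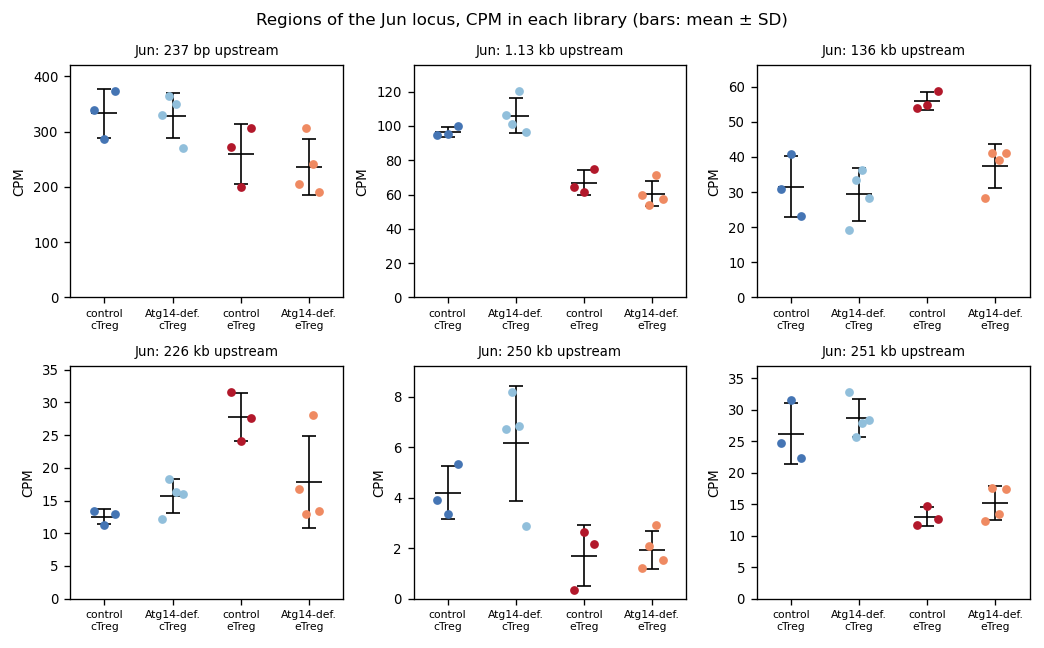
CPM of 6 Jun regions in every library, with the distance of the region midpoint from the Jun start in each title; points are libraries, and bars are the mean and SD of 3 control or 4 Atg14-deficient libraries. The regions 1.13 kb and 251 kb upstream are lower in eTregs of both genotypes, and at 136 kb the 3 control eTreg libraries, at 54.0 to 58.8 CPM, stand above all others.

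**Figure D3:**
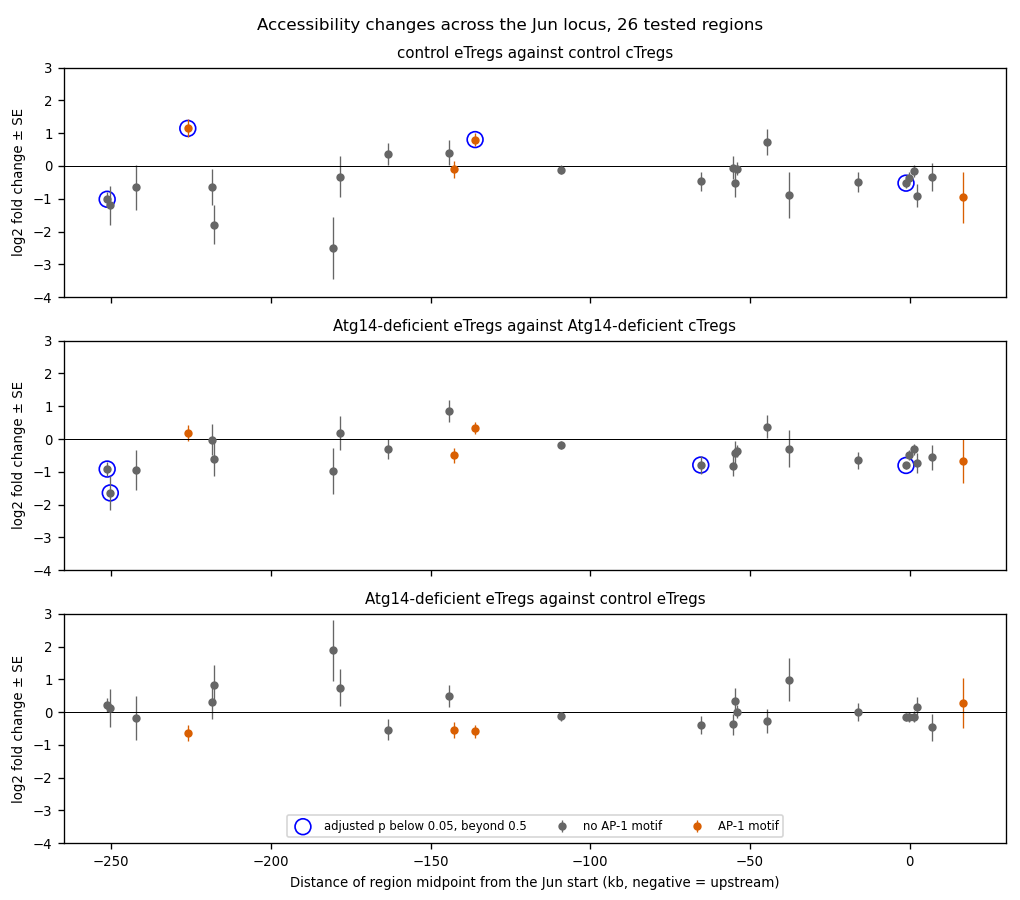
Log2 fold change with its standard error of the 26 tested Jun regions against the distance of their midpoint from the Jun start in kb (negative is upstream), for 3 comparisons; circles mark called regions, and orange marks regions with an AP-1 motif. In control cells 2 regions are called higher and 2 lower, in Atg14-deficient cells 4 are called lower, and between genotypes in eTregs none is called.

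Fos, the immediate early partner of Jun, had 1 called region. The intergenic region 26.6 kb upstream (chr12:85446843-85447647) held 46.4, 44.8 and 39.2 CPM in control cTregs and 22.8, 30.2 and 27.9 CPM in control eTregs (log2 fold change −0.69 ± 0.20, adjusted p = 0.0407). In Atg14-deficient cells it held 46.2, 34.3, 49.95 and 42.4 CPM in cTregs and 39.0, 28.0, 36.5 and 22.1 CPM in eTregs (−0.46 ± 0.18, adjusted p = 0.0884). The control groups did not overlap, but the call was lost without any 1 of the 6 control libraries, with DESeq2 size factors and with GC offsets (adjusted p 0.0526 to 0.177). At the Fos start (chr12:85473420-85474097), with its AP-1 and CArG matches, control cTregs held 49.1, 44.5 and 56.2 CPM and control eTregs 47.8, 35.7 and 44.3 CPM. Atg14-deficient cTregs held 53.8, 60.3, 54.4 and 42.4 CPM and Atg14-deficient eTregs 47.9, 54.0, 42.1 and 43.1 CPM. All 4 groups overlapped.

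Batf3, a small bZIP factor that pairs with Jun proteins, had 1 called region, and it was higher in eTregs. The called region lies in a Batf3 intron, 4.65 kb downstream of the start (chr1:191102698-191103245), and holds 2 TGANTCA matches. It held 6.72, 7.79, 4.73 and 9.96 CPM in Atg14-deficient cTregs and 11.4, 11.7, 11.1 and 21.6 CPM in Atg14-deficient eTregs (log2 fold change 0.95 ± 0.31, adjusted p = 0.0468). In control cells it held 9.78, 14.1 and 6.69 CPM in cTregs and 17.6, 13.7 and 11.9 CPM in eTregs (0.45 ± 0.34, adjusted p = 0.497). The Atg14-deficient groups were apart, but the call was lost without cTreg replicate 1, 2 or 3 or eTreg replicate 1 or 4, falling to 0.65 (adjusted p = 0.241) without eTreg replicate 4, and when only those 2 groups were fitted (adjusted p = 0.0594). In the region 0.809 kb upstream of the Batf3 start (chr1:191097343-191097690, intergenic) Atg14-deficient cTregs held 4.20, 2.34, 1.05 and 5.78 CPM and eTregs 8.39, 6.28, 5.82 and 7.71 CPM, without overlap (1.10 ± 0.43, adjusted p = 0.101). It became a call with the replicate block within genotype (1.19, adjusted p = 0.0445), with the block and GC offsets (1.27, adjusted p = 0.0456), with the promoter-share covariate (1.46, adjusted p = 0.0238) and without Atg14-deficient cTreg replicate 4 (1.55, adjusted p = 0.0336). Control cells held 2.93, 4.79 and 1.78 CPM there in cTregs and 6.51, 5.25 and 4.51 CPM in eTregs. The region at the Batf3 start itself (chr1:191098317-191098539, midpoint 0.103 kb downstream, in a UTR of Batf3), named after its values were seen, held 1.26, 0.779, 2.63 and 1.28 CPM in Atg14-deficient cTregs and 4.79, 5.02, 3.18 and 4.88 CPM in Atg14-deficient eTregs, again without overlap (1.499 ± 0.52, adjusted p = 0.0607). The control groups overlapped there, at 1.96, 2.15 and 4.46 CPM in cTregs and 2.28, 5.25 and 5.95 CPM in eTregs. Of the 6 Batf3 regions, 5 had a log2 fold change above 0 in Atg14-deficient cells and 4 in control cells. Over all 61366 tested regions, 31699 and 30195 were above 0. The Batf3 medians were 0.52 and 0.23. Over the 3 Batf3 regions with at least 10 counts in every library the medians were 0.04 and 0.01.

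None of the tested regions of Junb (4), Jund (3), Fosb (7), Fosl1 (1), Fosl2 (9) and Atf3 (7) was called between the states in either genotype. Jund, a Jun protein expressed in most cells, came nearest in control cells. Its start region (chr8:70698311-70699812, over the coding exon and with the TGACGTCA match) held 135, 106 and 146 CPM in control cTregs and 85.5, 105 and 99.0 CPM in control eTregs (log2 fold change −0.41 ± 0.14, adjusted p = 0.0778). Atg14-deficient cTregs held 152, 139.8, 128 and 108 CPM and Atg14-deficient eTregs 118, 132, 118 and 141 CPM (−0.05 ± 0.12, and −0.25 with GC offsets). The control difference became a call with GC offsets (−0.51, adjusted p = 0.0305), with these and the replicate block (−0.50, adjusted p = 0.019) and without control cTreg replicate 2 (−0.54, adjusted p = 0.0227). The start of Junb (chr8:84978538-84979000) held 56.7, 41.4 and 55.7 CPM in control cTregs, 44.9, 49.0, 43.6 and 33.4 CPM in Atg14-deficient cTregs, 49.8, 43.8 and 44.9 CPM in control eTregs, and 61.7, 57.7, 47.9 and 50.1 CPM in Atg14-deficient eTregs. The state log2 fold change at Junb was −0.15 ± 0.17 in control cells and 0.35 ± 0.15 (adjusted p = 0.129) in Atg14-deficient cells, and with GC offsets the second was 0.19.

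At the starts of the remaining members the groups lay close together. The mean at Fosb (chr7:19309992-19310548) was 35.8 ± 5.13 CPM in control cTregs, 35.8 ± 5.52 CPM in Atg14-deficient cTregs, 29.3 ± 2.94 CPM in control eTregs and 29.8 ± 3.04 CPM in Atg14-deficient eTregs (SD, n = 3, 4, 3 and 4, here and for the next 3 starts). Fosl2 (chr5:32134965-32136041), the gene of Fra-2, held 57.3 ± 8.05, 48.3 ± 2.68, 58.6 ± 5.13 and 52.3 ± 6.48 CPM in the same order, and Fosl1 (chr19:5447434-5448002), the gene of Fra-1, held 8.05 ± 1.60, 8.46 ± 2.46, 8.68 ± 1.91 and 11.5 ± 2.49 CPM. Atf3, a stress-induced bZIP factor, held 32.9 ± 2.56, 27.4 ± 4.16, 37.4 ± 1.77 and 31.8 ± 6.56 CPM at chr1:191183073-191183724. The state log2 fold changes of these 4 starts ran from −0.29 to 0.18 in control cells and from −0.27 to 0.47 in Atg14-deficient cells, none with an adjusted p below 0.321.

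**Figure D4:**
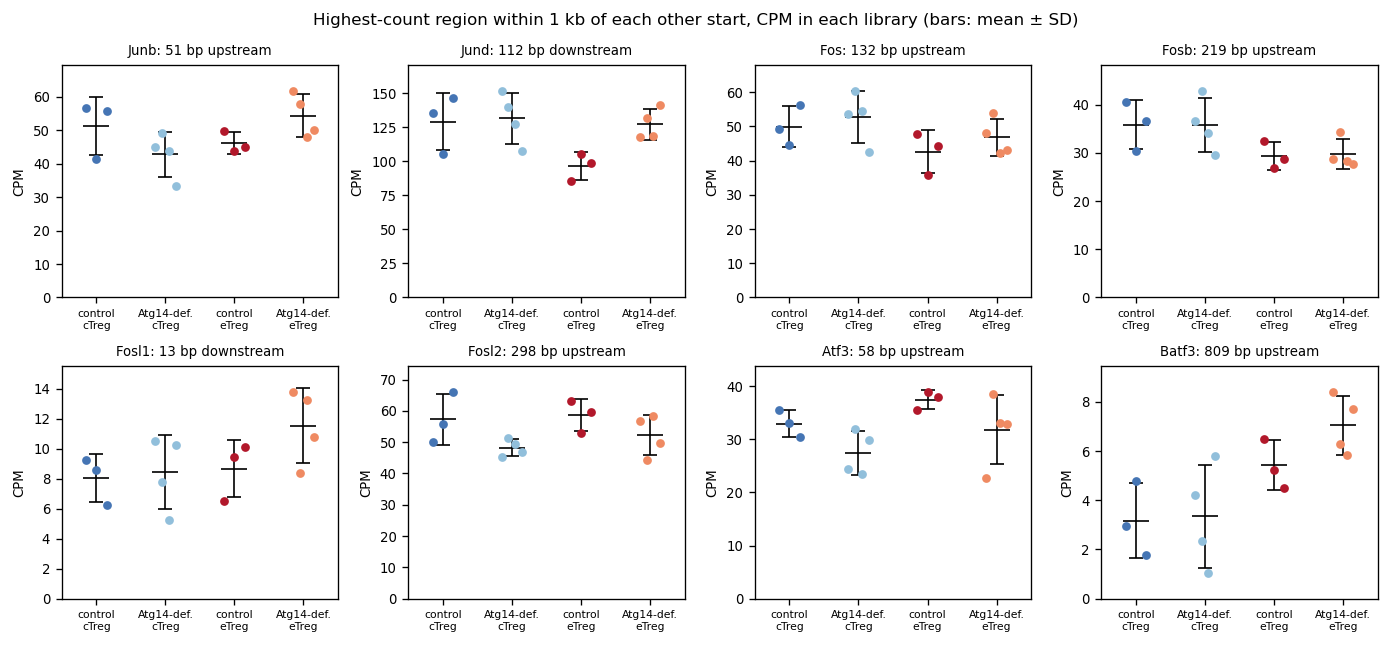
CPM in every library at the region of highest count within 1 kb of the start of the 8 members other than Jun; points are libraries, bars are the mean and SD of 3 control or 4 Atg14-deficient libraries, and each title gives the distance of the region midpoint from the start. At Jund the 3 control eTreg libraries, at 85.5 to 105 CPM, lie below the other groups, and 0.809 kb upstream of Batf3 the Atg14-deficient eTregs lie above the Atg14-deficient cTregs.

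The second question was whether loss of Atg14, a subunit of the autophagy form of the Vps34 lipid kinase complex, altered these loci within a state. No member region was called between genotypes in eTregs or in cTregs by the adjusted rule, nor in the test of whether the genotype difference itself differed between the states; over all regions this rule called 0.0228% in eTregs (14 regions), 0.0163% in cTregs (10) and 0% for the difference of the differences, so few calls of any kind were made. DESeq2's Wald test also called 0 members in each. When the same fold cutoff was set on an uncorrected p of below 0.05, 3 members were higher and 3 lower in Atg14-deficient eTregs (4.05% each), beside 4.59% and 1.77% of all tested regions; of all such regions 72.2% were higher, and 57.6% to 63.0% under the other scalings and offsets. In cTregs 0 members passed in either direction, beside 1.99% higher and 1.35% lower over all regions (59.6% of them higher, but 49.4% with loess offsets and 50.1% with GC offsets), and none had an unadjusted p below 0.05 at any fold, beside 2.19% higher and 1.83% lower over all regions. For the difference of the differences 0 were higher and 2 lower, beside 1.9% and 1.14%. Without the fold cutoff, 4 members were higher (5.41%) and 5 lower (6.76%) at an unadjusted p below 0.05 in eTregs, beside 5.17% and 2.78% of all tested regions. All genotype values that follow failed the correction: their adjusted p-values from edgeR are given, and the text says which of them had an unadjusted p below 0.05.

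Jund and Jun held regions of opposite sign in Atg14-deficient eTregs among the 9 with an unadjusted p below 0.05, which the next 3 paragraphs give. At the Jund start the control eTregs held 85.5, 105 and 99.0 CPM and the Atg14-deficient eTregs 118, 132, 118 and 141 CPM, as above, without overlap (log2 fold change 0.40 ± 0.13, adjusted p = 0.445). In cTregs the genotype difference at this region was 0.03 ± 0.13, and the difference between the 2 was 0.36 ± 0.18 (adjusted p = 1.00), short of the unadjusted threshold. Of the other Jund regions, the one 1.77 kb downstream (chr8:70700543-70700893), named after its values were seen, held 14.6, 12.9 and 17.5 CPM in control and 25.8, 20.1, 18.8 and 25.4 CPM in Atg14-deficient eTregs (0.58 ± 0.23, adjusted p = 0.545). It missed the unadjusted threshold without control eTreg replicate 2 or Atg14-deficient eTreg replicate 1 or 4, with log2 fold changes of 0.48 to 0.51. Summed over its 3 regions, Jund held 106 to 127 CPM in control eTregs and 149 to 178 CPM in Atg14-deficient eTregs, with 132 to 186 CPM over the cTregs of both genotypes. These values share the control eTregs with the state comparison, in which they were the low group.

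The Jun regions at 136 kb and 226 kb, high in control eTregs, had the smallest p-values of the Jun regions here, and this again rests on the same 3 control eTreg libraries. At 136 kb the Atg14-deficient eTregs (28.2 to 41.1 CPM) lay below the control eTregs (54.0 to 58.8 CPM). Their log2 fold change was −0.58 ± 0.19 (adjusted p = 0.445), or −0.47 without Atg14-deficient eTreg replicate 1. At 226 kb the change was −0.63 ± 0.25 (adjusted p = 0.534), and the groups overlapped through Atg14-deficient replicate 3. The genotype difference at 226 kb was 0.33 ± 0.27 in cTregs, and the difference between eTregs and cTregs was −0.96 ± 0.37 (adjusted p = 1.00), with an unadjusted p below 0.05. Without control eTreg replicate 1 or Atg14-deficient eTreg replicate 2 or 4 the eTreg value at 226 kb was −0.50 to −0.53 and missed the unadjusted threshold. Another Jun region, 143 kb upstream (chr4:95194711-95195246) and named after its values were seen, held 20.8, 15.8 and 19.3 CPM in control and 10.5, 9.20, 18.5 and 11.8 CPM in Atg14-deficient eTregs (−0.55 ± 0.25, adjusted p = 0.585), and it missed the unadjusted threshold when any 1 of control eTreg replicates 1 and 3 and Atg14-deficient eTreg replicates 1, 2 and 4 was left out (−0.45 to −0.52) and when the 2 eTreg groups were fitted alone.

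Outside the Jun genes, the smallest p-values in eTregs fell to Atf3 and Batf3. The Atf3 intron region 10.6 kb upstream of the nearest start (chr1:191193612-191194357) held 128, 121 and 109 CPM in control and 98.0, 94.5, 99.8 and 82.2 CPM in Atg14-deficient eTregs, without overlap (log2 fold change −0.35 ± 0.13, adjusted p = 0.51). In cTregs it held 80.2 to 127 CPM in control and 91.9 to 116 CPM in Atg14-deficient cells. The Batf3 region 13.2 kb upstream (chr1:191085020-191085285), in a UTR of Nsl1, held 0.651, 1.05 and 1.08 CPM in control and 2.40, 2.09, 3.18 and 4.62 CPM in Atg14-deficient eTregs (1.68 ± 0.66, adjusted p = 0.534). Without control eTreg replicate 1 or Atg14-deficient eTreg replicate 4 the value was 1.52 or 1.41 and missed the unadjusted threshold. Fosb had a region on each side. The region 8.75 kb downstream (chr7:19300747-19300946) held 3.90, 3.94 and 4.14 CPM in control and 5.99, 5.44, 6.09 and 9.76 CPM in Atg14-deficient eTregs (0.78 ± 0.37, adjusted p = 0.616). It missed the unadjusted threshold under each of the other scalings (0.68 to 0.73), with the replicate block (0.63), and without any 1 control eTreg library or Atg14-deficient replicate 4 (0.54 to 0.81). The region 11.6 kb upstream (chr7:19321478-19321866), named after its values were seen, held 33.2, 31.5 and 40.9 CPM in control and 27.6, 26.8, 28.1 and 24.7 CPM in Atg14-deficient eTregs (−0.40 ± 0.18, adjusted p = 0.593).

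The AP-1 motif divided these 9 regions, a pattern noticed in the data and given without a test. All 5 regions that were lower in Atg14-deficient eTregs at an unadjusted p below 0.05 (Jun at 136 kb, 143 kb and 226 kb, Atf3 at 10.6 kb and Fosb at 11.6 kb) hold TGANTCA, and none of the 4 that were higher does. Over their whole length 14 of the 78 members (17.9%) hold it, beside 17.1% of all regions. Regions differ in length, a longer one has more places for a match, and the part of length was not tested. The counts that follow come from the same eTreg libraries, and 3 of the 5 lower regions lie upstream of Jun. The count was 5 of 5 under every other scaling, filter, offset and block, and 4 of 5 when the 2 eTreg groups were fitted alone. It was 2 of 2 without control eTreg replicate 1 or Atg14-deficient eTreg replicate 4, 3 of 3 without control eTreg replicate 3, 4 of 4 without Atg14-deficient eTreg replicate 1, 3 of 6 without Atg14-deficient eTreg replicate 2, and 5 of 6 without either remaining eTreg library. By the same rule at any fold, of 10749 tested regions with the motif over all genes 530 (4.93%) were higher and 341 (3.17%) lower in Atg14-deficient eTregs, and of 50573 without it 2642 (5.22%) were higher and 1348 (2.67%) lower. Beyond 1 kb of a start, where 8 of the 9 members lie, 460 of 9361 with the motif (4.91%) were higher and 274 (2.93%) lower, beside 2010 (5.31%) and 796 (2.1%) of 37854 without it.

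In cTregs the 5 regions with the smallest p for genotype were spread over genes. The Fos intron region 0.699 kb downstream (chr12:85474439-85474740) held 9.29, 12.4 and 10.7 CPM in control and 21.4, 11.7, 16.04 and 15.4 CPM in Atg14-deficient cTregs (log2 fold change 0.57 ± 0.30, adjusted p = 1.00). The Fos region 29 kb upstream (chr12:85444639-85445089) held 14.2, 15.8 and 12.0 CPM in control and 31.9, 17.5, 14.99 and 15.7 CPM in Atg14-deficient cTregs (0.49 ± 0.29, adjusted p = 1.00). The high value is 1 library, replicate 1, and without it the change was 0.18. The genotype difference of this region differed between eTregs and cTregs by −0.86 ± 0.41 (adjusted p = 1.00), with an unadjusted p below 0.05. It missed that threshold without any 1 of control cTreg replicates 1 and 3, Atg14-deficient cTreg replicate 1, control eTreg replicate 2 and Atg14-deficient eTreg replicates 1, 2 and 4 (−0.86 to −0.54), which are 7 of the 14 libraries. The other 3 were the starts of Fosl2 (−0.24) and Junb (−0.26) and the Jun region 54.1 kb upstream (0.31), each with an adjusted p of 1.00. At the Junb start the genotype differences were −0.26 ± 0.16 in cTregs and 0.24 ± 0.16 in eTregs, and differed by 0.49 ± 0.22 (adjusted p = 1.00), with an unadjusted p below 0.05 but short of the fold cutoff.

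**Figure D5:**
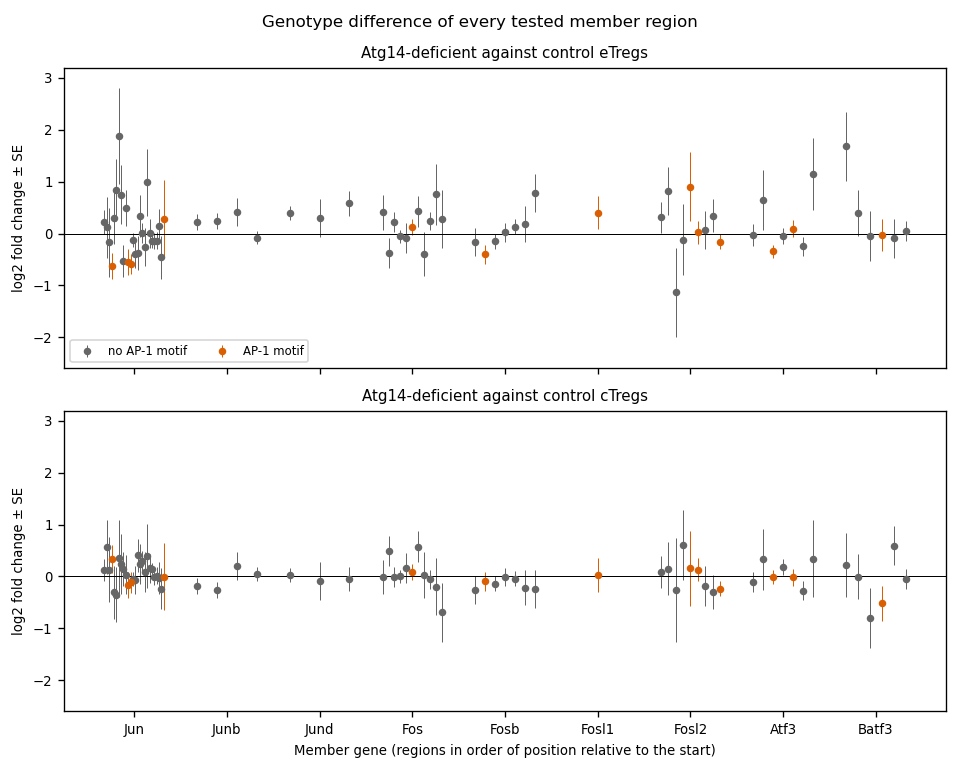
Log2 fold change of Atg14-deficient against control cells with its standard error for each of the 74 tested member regions, in eTregs (top) and cTregs (bottom), ordered by gene and by position from the start; orange marks regions with an AP-1 motif. The 3 Jund regions lie above 0 in eTregs and the lowest orange points are the Jun regions at 136 kb, 143 kb and 226 kb; no point passes the adjusted threshold.

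Genes listed as acting with or on Jun and Fos were read the same way, from their own regions by nearest start. The lists group related genes and do not show that each acts on Jun or Fos. A region named far from a start does not show a change at the gene itself. Each list's shares are read beside those of all tested regions, of which 2.01% were called higher and 3.29% lower in control eTregs, and 4.41% higher and 5.4% lower in Atg14-deficient eTregs. Among other bZIP factors, 12 of 15 genes had regions. Of their 179 tested regions 2 were called higher (1.12%) and 13 lower (7.26%) in control eTregs. In Atg14-deficient eTregs 12 were higher (6.7%) and 19 lower (10.6%). Bach1 and Bach2, repressors that compete for AP-1 sites, had the smallest p-values: the Bach1 region at chr16:87725901-87726591 fell from 36.8 ± 6.91 to 11.0 ± 2.29 CPM (SD; log2 fold change −1.74, adjusted p = 0.000455) and the Bach2 region at chr4:32343740-32344178 from 31.4 ± 6.07 to 10.7 ± 3.07 CPM (−1.56, adjusted p = 0.00063) between control cTregs and control eTregs. A Maf region rose from 11.1 ± 3.66 to 28.0 ± 4.46 CPM (1.29, adjusted p = 0.0363), and a Jdp2 region fell from 12.1 ± 2.67 to 5.33 ± 0.570 CPM (−1.18, adjusted p = 0.0461). Bach2 is also on the central-state marker list. The regions named lay 27.3 kb (Bach1), 73.5 kb (Bach2), 88.7 kb (Maf) and 53.1 kb (Jdp2) from the start of the gene.

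Phosphatases of the Dusp family, which switch off mitogen-activated protein kinases, had regions for 8 of 8 genes, and 4 of their 157 tested regions were higher (2.55%) and 14 lower (8.92%) in control eTregs, with 0 higher and 21 lower (13.4%) in Atg14-deficient eTregs. Their regions with the smallest p were lower in control eTregs: Dusp10 (−2.18, adjusted p = 0.00066), Dusp6 (−1.88, adjusted p = 0.00259) and Dusp4 (−2.22, adjusted p = 0.0173) on the log2 scale, and Dusp5 from 4.55 ± 0.209 to 0.295 ± 0.269 CPM (SD; adjusted p = 0.00227), where the low group holds too few counts for a fold. Of the 77 tested regions of 13 of 14 upstream kinases, 1 was higher (1.3%) and 4 lower (5.19%) in control eTregs, with called regions at Map3k1 (−1.33, adjusted p = 0.00274), Map3k7 (−1.81, adjusted p = 0.0254) and Mapk9 (5.87 against 1.13 CPM, adjusted p = 0.0404). Of the 78 tested regions of 9 factors listed for Fos and Jun transcription, 0 were higher and 3 lower (3.85%) in control eTregs. Calls fell at Mef2a (6.54 against 0.71 CPM, adjusted p = 0.00874) and Elk3 (−1.99, adjusted p = 0.0123). Creb1 (−0.40, adjusted p = 0.0329) missed the fold cutoff and Elk4 (−0.45) had an adjusted p of 0.0715. In Atg14-deficient eTregs 6 kinase regions were higher (7.79%) and 4 lower (5.19%). For the listed transcription factors 2 regions were higher (2.56%) and 7 lower (8.97%). The phosphatase regions named lay 31.9 kb (Dusp10), 188 kb (Dusp6), 70.9 kb (Dusp4) and 27.7 kb (Dusp5) from the start of the gene. The kinase regions lay 194 kb (Map3k1), 98.5 kb (Map3k7) and 7.11 kb (Mapk9) away. Those of Mef2a and Elk3 lay 105 kb and 20.5 kb away, and those of Creb1 and Elk4 at the start.

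No region of these 4 lists was called between genotypes. At the unadjusted rule in eTregs, 8 bZIP regions were higher (4.47%) and 2 lower (1.12%), and 9 phosphatase regions higher (5.73%) and 2 lower (1.27%). For the listed transcription factors 5 regions were higher (6.41%) and 0 lower, and for the kinases 3 were higher and 3 lower (3.9% each). Over all regions these shares were 4.59% and 1.77%. The start of Dusp1, itself an immediate early gene, held 51.3 ± 10.4 CPM in control and 75.4 ± 5.63 CPM in Atg14-deficient eTregs without overlap (log2 fold change 0.55 ± 0.14, adjusted p = 0.298), and a Dusp4 region 152 kb from its start had 2.50 (1.56 against 8.96 CPM, adjusted p = 0.298). The same Dusp5 region held 0.295 CPM in control and 1.48 CPM in Atg14-deficient eTregs, and a Dusp6 region had −0.79. Among the bZIP factors the values were 0.51 at the start of Nfe2l1 (adjusted p = 0.331), 1.07 at Nfe2l2, 1.05 at Maf and 0.68 at Bach2. Among the listed transcription factors they were 1.06 at Creb1, 0.44 at the start of Mef2d, 0.39 at Elk4 and −0.37 at Crem. Among the listed kinases they were 0.37 at the start of Map3k14, 0.76 at Map3k1 and −0.95 at Mapk8. All of their adjusted p-values were 0.298 or above. Elk4 and Crem were read at the start. The other regions without a distance above lay 27.7 kb (Dusp5), 41.6 kb (Dusp6), 19 kb (Nfe2l2), 192 kb (Maf) and 73.5 kb (Bach2) away. Those of Creb1, Map3k1 and Mapk8 lay 4.82 kb, 36.9 kb and 7.7 kb away.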

How the data were processed

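Chromatin accessibility was measured by ATAC-seq in 14 libraries. The authors deposited 1 table of raw counts per region, with no normalization. Per the paper's methods, reads were trimmed and aligned with BWA, duplicates were removed with Picard, read ends were shifted for the transposase, nucleosome-free fragments were kept, peaks were called with MACS2 in each library, and peaks present in enough replicates of a genotype were merged and counted with bedtools; the submitters' processing notes name cutadapt 1.9, Picard 1.65, SAMtools, MACS2 2.1.0.20150603 and bedtools. Requiring peaks in replicates favours regions open in some group. The methods and the notes name different builds; all 67207 regions on chromosomes fit GRCm38, and 10717 of 21951 protein-coding starts had a region no more than 200 bp away, a number that dropped to 797 once the starts were moved by 20000 bp. Of all counts, 82% were even, so the ends of a fragment were mostly counted together in pairs and the counts overstate the number of molecules.

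Each library held 2242983 to 5548189 counts, and the tested regions averaged a median of 23 counts per library. Counts were scaled by library totals and tested with edgeR 4.0.16 (R 4.3.3; filterByExpr, robust quasi-likelihood fit of all 14 libraries with 4 group coefficients). P-values were adjusted by the Benjamini-Hochberg method over the 61366 regions tested. All p-values are two-sided; unadjusted ones come from the same edgeR fit. The biological coefficient of variation was 25.6%. An exact permutation test of 3 against 4 libraries cannot go below p = 0.0571 and was not used. The fit was tested on simulated data. For the control state comparison it called 75 of 100 regions changed 4-fold, 14 of 100 changed 2-fold and 5 unchanged ones; for the eTreg genotype comparison these were 79, 12 and 4, over 61366 regions each. Changes of 2-fold were therefore mostly missed in this simulation, in which few regions changed and all shared the same dispersion. The state comparisons called many more regions than were changed there, so these rates do not carry over to them.

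Regions named were the start region of each member, up to 3 called regions of smallest p per gene and state comparison, the 5 of smallest p in each genotype comparison and in the difference between them, and, per pathway list, the 4 genes of smallest regional p in the control state and eTreg genotype comparisons; others are said to be named after their values were seen. Some items that this rule names are not reported here. The members and lists were chosen with earlier results of these data known. Marker genes were read from the region of highest mean count within 1 kb of a start.

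Replicate numbers came from the labels. Same-numbered cTreg and eTreg libraries of Atg14-deficient cells had correlated deviations (0.12, 0.24, 0.14 and 0.23) and were treated as paired in an alternative. Those of control cells (0.05, 0.21 and 0.19) did not all pass 0.1. Libraries of different genotype and number reached 0.28 (control cTreg replicate 2 with Atg14-deficient cTreg replicate 4). The correlations therefore do not show which libraries came from the same mouse. The chi-square per degree of freedom between replicates of a group was 2.48 to 4.35. Counts mostly come in pairs, which by itself raises this figure, so it overstates the spread beyond counting noise. Alternatives were TMM, DESeq2 1.42.0 size factors and Wald test, loess and GC offsets, count filters, replicate blocks, fewer groups, fewer libraries, other memberships and a promoter-share covariate. Promoters were searched in the RefSeq promoter table, where 8 of 9 members matched, and sequences were read from GRCm38.p6 with pysam 0.24.0.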

Additional observations from a re-analysis of the deposited data

Results flagged for a closer look

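Of 62 groups of 4 Atg14-deficient libraries checked, 5 held a library that stood far from the other three, measured as its gap to the nearest library over the whole range; chance gives this in about 1 in 20 groups. In the Batf3 intron region 4.65 kb downstream, Atg14-deficient eTreg replicate 4 was the highest at 21.6 CPM (0.944 of the range). In the Fos region 29 kb upstream, Atg14-deficient cTreg replicate 1 was the highest at 31.9 CPM (0.85). In the Fosb region 8.75 kb downstream, Atg14-deficient eTreg replicate 4 was the highest at 9.76 CPM (0.85). At the Fosb start, Atg14-deficient eTreg replicate 2 was the highest at 34.3 CPM (0.845). In the Jun region 136 kb upstream, Atg14-deficient eTreg replicate 1 was the lowest at 28.2 CPM (0.852).

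The genotype effect differed between eTregs and cTregs at an unadjusted p below 0.05 in edgeR in a pair of regions past the fold cutoff, each with an adjusted p of 1.00. The difference was −0.958 on the log2 scale in the Jun region 226 kb upstream and −0.859 in the Fos region 29 kb upstream.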

How the results depend on the processing

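No called value changed direction. The count of 5 control state calls became 3 with DESeq2 size factors, 8 with the replicate block within genotype, 9 with a covariate for the share of counts near starts (both chosen after the data were seen), 2 beyond a log2 fold change of 1, 2 within 100 kb of a start, and 0 to 6 without 1 library (0 without control eTreg replicate 1). The count of 5 Atg14-deficient state calls became 10 with that block, 10 with the covariate, 1 beyond 1, 3 within 100 kb, and 2 to 7 without 1 library. Across all tested regions, Atg14-deficient state calls rose from 2707 higher and 3314 lower to 4684 and 4811 with the block within genotype. With the covariate they were 6041 and 4763. Control state calls rose from 1235 higher and 2016 lower to 2868 and 3499 with that block, and were 3466 and 3309 with the covariate. For the members, the planned replicate block gave 5 and 5 state calls, and 6 and 7 with GC offsets. The 6 unadjusted eTreg genotype results became 1 beyond 1, 3 within 100 kb, and 2 to 9 without 1 library. The 0 in cTregs became 1 with the replicate block, 1 with the block and GC offsets, 2 with the covariate, and 0 to 1 without 1 library. The 2 differences between states became 4 with the block within genotype, 0 beyond 1, 1 within 100 kb, and 1 to 5 without 1 library. The cause of these moves was not tested. Adjusted genotype calls were 0 in every fit run. The replicate block changed no other call count by over 1.5 times. Over all regions, the share of higher regions among state calls was 38.0% in control and 45.0% in Atg14-deficient cells, and 51.2% and 55.9% with the covariate. Depth limits regions of a few CPM, such as those of Batf3.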
